A study of Homo sapiens with 6 samples.

Results

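The genes described here encode the protein subunits of the mitochondrial ribosome. They were taken by name, as every entry of the count table called MRPL or MRPS followed by a number and at most 1 letter A, B or C. The rule found 78 genes among 35615 entries, and all 78 passed the filter on low counts, as did 14543 genes in all. RNA was sequenced from K562, a human erythroleukaemia line driven by the BCR-ABL1 kinase. One group of cultures received an RNA that mimics the microRNA hsa-miR-92a-1-5p and is called the mimic group below, and the other received a negative-control RNA and is called scramble. In both groups 5000000 cells took up 500 pmol of RNA by nucleofection, 1 µM imatinib, an inhibitor of the BCR-ABL1 kinase, was added 4 h later, and RNA was taken 24 h after that. Every culture therefore carried imatinib, and the comparison is of the mimic with scramble under the drug. Each group had 3 libraries, numbered 1 to 3 as biological replicates of a single cell line.

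Mimic library 1 held 704448 estimated counts, against 24751862 to 25982085 in each of the other 5 libraries. The cells were labelled as myeloblasts. All 10 erythroid marker genes averaged at least 1 CPM (counts scaled to a common library total) in both groups, whereas 3 of 9 myeloblast markers did (AZU1, CD33 and SPI1) and MPO, the defining one, was at 0 in every library. The summed erythroid markers ran from 9470 to 18522 CPM in the mimic libraries and from 12060 to 19685 CPM in the scramble libraries. With replicates blocked (explained below), the erythroid markers TFRC, HBZ and NFE2 were called lower, and their part in the results on the ribosomal genes was not tested.

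Mitochondria carry their own ribosome, which translates the few membrane subunits of the respiratory chain that mitochondrial DNA encodes. Its RNAs are made inside the organelle, but its proteins are all encoded in the nucleus, made in the cytosol and imported. The large subunit joins amino acids and holds the exit tunnel, and the small subunit reads the messenger RNA. Some of the proteins descend from bacterial ribosomal proteins and others have no bacterial counterpart. A microRNA acts mainly through its seed, which pairs with matching letters in the 3′ UTR of a messenger RNA and lowers its stability or translation.

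The sequence of the mimicked microRNA is given because its seed defines the sites searched for. It is credited to RefSeq (GRCh38.p14, chr13:91351324-91351346, + strand), and capitals mark the seed, bases 2 to 8.
hsa-miR-92a-1-5p: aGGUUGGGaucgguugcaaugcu

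The letters complementary to this seed are CCCAACC, here called a 7mer-m8 match. The same letters with a following A (CCCAACCA) make an 8mer match, and CCAACCA is a 7mer-A1 match. In the longest 3′ UTR that GENCODE release 29 gives each gene, 7 of 78 mitochondrial ribosomal protein genes (8.97%) held a match of 7 or 8 letters, against 2171 of 12879 tested genes (16.9%). Their UTRs were also shorter, with a median of 493.5 bases against 1327 bases over the tested genes. Matches of 6 of these genes are shown with up to 11 bases on each side because the genes with the lowest values with the mimic are among their hosts. Capitals mark the match, and all lie on the + strand of GRCh38.
MRPL48, chr11:73864456-73864462: tcatcaggagaCCCAACCcttagatttca
MRPL49, chr11:65126510-65126516: ggaagcagtagCCCAACCccagtttaggg
MRPL49, chr11:65126935-65126941: tgccatcccatCCCAACCccagctcacta
MRPS18B, chr6:30626287-30626293: gtatgggaaacCCCAACCcctatatattg
MRPS11, chr15:88479620-88479626: gaccaaagaagCCCAACCggaggcttctt
MRPL35, chr2:86212435-86212441: agacggcaaagCCAACCActtagaagcct
MRPL42, chr12:93507021-93507027: ttgtggcagaaCCAACCAatgtctttttt

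No mitochondrial ribosomal protein gene was called in either direction when the mimic group was compared with scramble by edgeR's quasi-likelihood test (adjusted over all tested genes after Benjamini and Hochberg, threshold 0.05). In the same fit 0.976% of all tested genes were called lower, 0.433% higher and 1.41% in either direction. Unadjusted p was under 0.05 for 12 of the 78 genes, 5 lower and 7 higher, against 13.5% of all tested genes. DESeq2 called 0 of the 78, against 2.61% of all tested genes, and limma-voom called 1 (MRPL45), against 1.89%. A fit that blocks on the replicate number, so that each mimic library is set against the scramble library with the same number, called 7 of the 78 (8.97%), against 11.3% of all tested genes. MRPL48 and MRPL49 were lower in it, where the background is 6.7%, and MRPL3, MRPL37, MRPL45, MRPL55 and MRPS34 were higher, where it is 4.57%. Of the 7496 tested genes in the same range of counts as the 78, the block called 16.1%, 709 lower and 498 higher. The share called in either direction at an adjusted p under 0.05 was under the background in each of these 4 fits. Replicate numbers were taken as pairing from the data alone, since the labels do not say what a number marks, and every blocked call rests on it.

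The log2 fold changes of the 78 genes, mimic over scramble, ran from -0.63 to 0.47, with a median of 0.08 and quartiles of -0.02 and 0.21. The median over all tested genes was -0.01. A value above 0 was found for 54 of the 78 genes (69.2%), against 48.3% of all tested genes. Most were small, and 59 of 78 (75.6%) lay within 1.2-fold of scramble, as did 64.4% of all tested genes and 72.9% of the 7496 genes in the same range of counts. The CPM values of the groups did not overlap for 14 of the 78 genes. Without mimic library 1, where fewer values have to separate, this count was 29, against 32.5% of all tested genes. With all libraries, the mimic libraries were higher for 9, against a background of 9.73% of all tested genes, and lower for 5, against 11.5%.

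**Figure D1:**
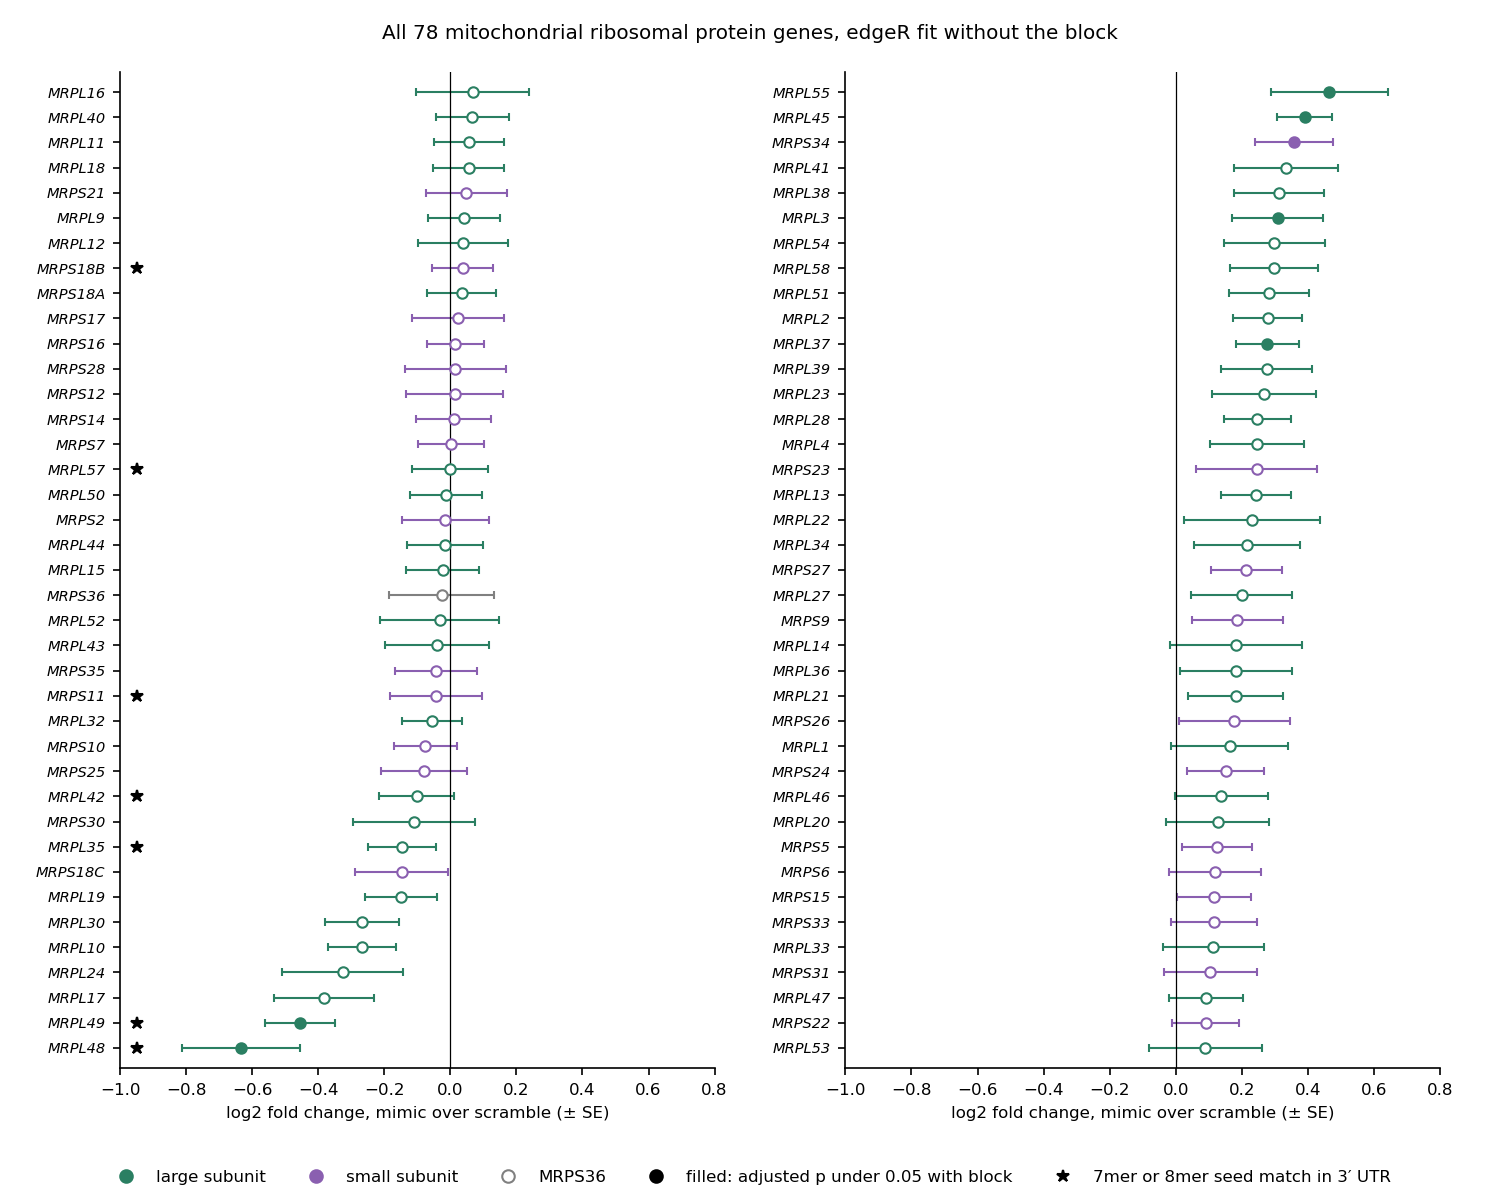
The log2 fold change of each of the 78 genes in the mimic group over scramble, ranked and coloured by subunit, with bars of 1 standard error from the fit without the block; filled points were called with the block and stars mark genes with a 7mer or 8mer match. The lowest values, -0.63 for MRPL48 and -0.46 for MRPL49, and the highest, 0.47 for MRPL55, belong to large-subunit genes, and most small-subunit genes lie close to 0.

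The spread differed between the subunits. The 51 large-subunit genes had a median log2 fold change of 0.09 with an SD of 0.23, and the 26 small-subunit genes a median of 0.04 with an SD of 0.11. The order of the medians turned without mimic library 3 (large minus small -0.0098) and with the block but without pair 3 (-0.0299). Within 1.2-fold of scramble lay 33 of 51 large-subunit genes and 25 of 26 small-subunit genes. Of the 7 genes called with the block, 6 were of the large subunit and 1 of the small. Of the large-subunit genes, 30 classed as having bacterial relatives had a median of 0.12, and 21 classed as specific to mitochondria a median of 0.07. In the small subunit the median was 0.01 for the 16 genes classed as having bacterial relatives. None of the 16 was called in either fit or had an unadjusted edgeR p under 0.05. For the 10 small-subunit genes classed as specific to mitochondria the median was 0.11. MRPS18A (large subunit) and MRPS18B (small subunit) were classed as specific to mitochondria. They share a family name with MRPS18C, classed as having a bacterial relative, so the classes are not a strict split by ancestry. The remaining gene, MRPS36, carries a ribosomal name but is now counted as a subunit of the 2-oxoglutarate dehydrogenase complex. Its log2 fold change was -0.03 ± 0.16 (SE).

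MRPL48 had the lowest fold change of the large subunit. It encodes a protein of the central protuberance that has no bacterial counterpart, and lies on the + strand of chromosome 11 at 73787316 to 73865133 (GRCh38). Its level was 12.2, 24.9 and 20.7 CPM in mimic libraries 1 to 3, against 34.5, 33.7 and 31.1 CPM in scramble libraries 1 to 3. All mimic values lay below all scramble values, and the shallow mimic library 1, where only 9 counts were assigned to the gene, was the lowest. The log2 fold change was -0.63 ± 0.18 (SE), with an edgeR adjusted p of 0.163 without the block, and -0.62 ± 0.14 with an adjusted p of 0.0078 with it. The blocked call was kept without any 1 of the 3 replicate pairs (adjusted p 0.0058 to 0.0297), and without pair 1 the log2 fold change was -0.51. The match shown above starts at base 86 of a 3′ UTR of 241 bases.

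MRPL49, another large-subunit protein specific to mitochondria, lies on the + strand of chromosome 11 at 65122183 to 65127371. It had 55.8, 54.3 and 63.7 CPM in the mimic libraries, against 79.9, 76.2 and 84.2 CPM in the scramble libraries. The groups did not overlap, and each mimic library was lower than its same-numbered partner by a similar amount, with log2 ratios of -0.52, -0.49 and -0.40. Adjusted p was 0.0890 without the block (log2 fold change -0.46 ± 0.10, SE) and 0.0031 with it (-0.46 ± 0.09), by edgeR. Without pair 2 the blocked adjusted p was 0.0837. Its 3′ UTR of 1499 bases holds the pair of matches shown above, at bases 638 and 1063. Exons of MRPL49 overlap those of FAU and of SYVN1 on the other strand by up to 158 bases each, and the log2 fold changes of those genes were 0.04 for FAU and 0.01 for SYVN1.

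The 4 next lowest genes belong to the large subunit as well, have bacterial relatives and hold no match of 6 letters or more in their longest 3′ UTR. MRPL17 had 16.3, 23.6 and 19.5 CPM in the mimic libraries and 28.6, 28.3 and 24.6 CPM in the scramble libraries. MRPL10, at the base of the stalk that receives the translation factors, had 40.8, 43.2 and 43.7 CPM with the mimic and 51.0, 55.1 and 49.2 CPM with scramble. MRPL30 had 74.8, 97.0 and 84.1 CPM with the mimic and 110.2, 107 and 98.0 CPM with scramble. In these 3 genes every mimic library lay below every scramble library, though for MRPL30 the gap was small. MRPL24 overlapped between the groups, at 36.7, 39.4 and 29.3 CPM with the mimic and 46.3, 50.1 and 34.1 CPM with scramble. The log2 fold changes were -0.38 ± 0.15 for MRPL17, -0.33 ± 0.18 for MRPL24, -0.27 ± 0.10 for MRPL10 and -0.27 ± 0.11 for MRPL30 (SE), and none was called with all libraries (edgeR adjusted p 0.304 to 0.511 without the block). In the blocked fit without pair 3, MRPL10 (edgeR adjusted p 0.0292) and MRPL24 (0.0479) were called lower. Without mimic library 3 and with no block, the log2 fold change of MRPL24 was -0.17.

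Among the genes with higher values, MRPL45 had the tightest replicates. Its protein sits near the exit of the large subunit's tunnel and helps to hold the ribosome at the inner membrane. The gene lies on the + strand of chromosome 17 at 38297023 to 38323218. Its level was 98.0, 100.2 and 99.0 CPM in the mimic libraries, against 75.0, 76.4 and 75.7 CPM in the scramble libraries. The 2 groups were far apart relative to their spread, at 99.0 ± 1.11 CPM with the mimic and 75.7 ± 0.727 CPM with scramble (SD, n = 3 each). In mimic library 1, however, the level rested on 72 counts, so the small mimic SD understates the counting error of that library. The log2 fold change was 0.39 ± 0.08 (SE), with an edgeR adjusted p of 0.0700 without the block, 0.0064 with it and 0.140 with it but without pair 2, and limma-voom gave 0.0484.

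MRPL37, also specific to mitochondria, lies on the + strand of chromosome 1 at 54184041 to 54225464. It had 133, 155 and 159.6 CPM in the mimic libraries and 126, 130.4 and 119 CPM in the scramble libraries. The mimic values were all higher, library 1 only just. Its log2 fold change was 0.28 ± 0.10 (SE) with an edgeR adjusted p of 0.252 without the block and 0.0416 with it. No blocked fit that left out 1 pair called it (adjusted p 0.0538 to 0.309). Its exons overlap those of CYB5RL by up to 140 bases and of SSBP3 by up to 33 bases, both on the other strand, and the log2 fold changes of those genes were -0.08 for CYB5RL and 0.11 for SSBP3.

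MRPL3 and MRPL55 have bacterial relatives, and MRPL3 is one of the proteins that reach toward the site of peptide bond formation. MRPL3 (chromosome 3, 131462212 to 131502983, − strand) had 149.7, 116 and 105 CPM in the mimic libraries and 104, 99.0 and 86.4 CPM in the scramble libraries. The lowest mimic library was barely above the highest scramble library, and within each group library 3 was the lowest. Its log2 fold change was 0.31 ± 0.14 (SE), with an edgeR adjusted p of 0.377 without the block and 0.0243 with it. MRPL55 (chromosome 1, 228106679 to 228109312, − strand) had 20.4, 28.7 and 37.8 CPM in the mimic libraries and 22.2, 22.7 and 22.7 CPM in the scramble libraries. Here the groups overlapped, since mimic library 1 was under every scramble library, and the scramble libraries differed little. Its log2 fold change of 0.47 ± 0.18 (SE) had an edgeR adjusted p of 0.301 without the block and 0.0496 with it. Without mimic library 3 the log2 fold change of MRPL55 was 0.24, and without mimic library 1 that of MRPL3 was 0.20. MRPL3 and MRPL55 were each called in 1 of the 3 blocked fits that left out a pair, with adjusted p up to 0.136 for MRPL3 and up to 0.588 for MRPL55.

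**Figure D2:**
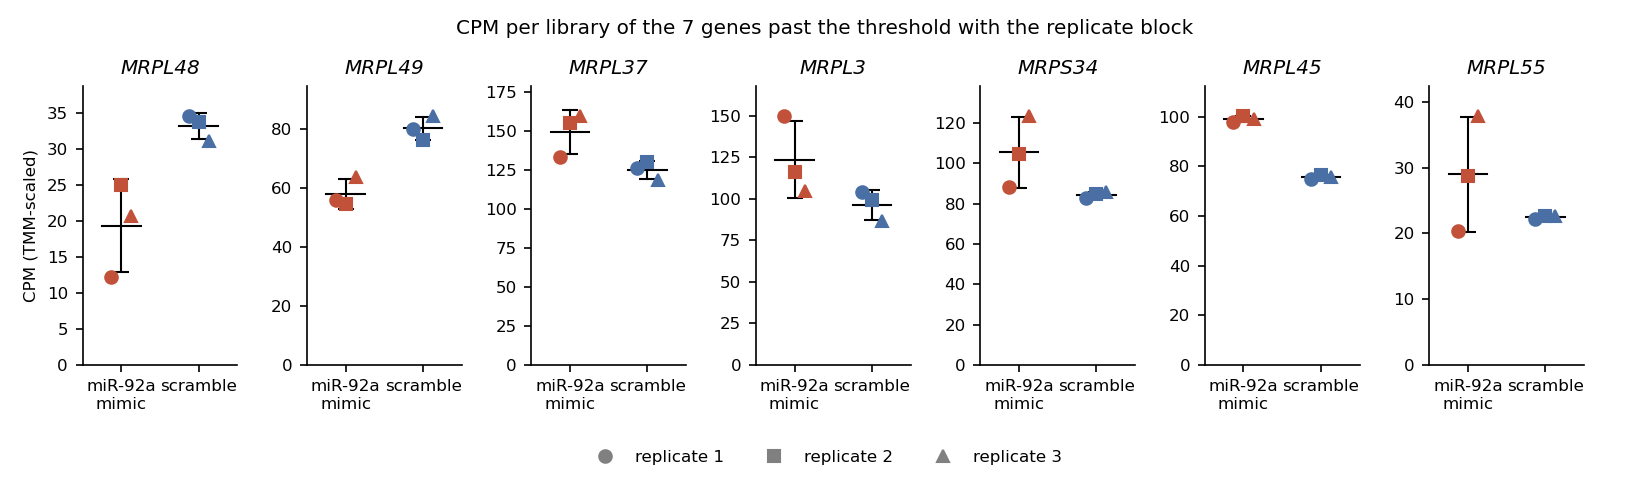
CPM of the 7 genes called in the blocked fit, 1 point per library, with mimic libraries to the left of scramble libraries in each panel and bars for the group mean ± SD (n = 3 each). MRPL48 and MRPL49 are lower in all 3 mimic libraries, MRPL45 is tight in both groups, and MRPL55 overlaps between the groups.

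The 2 other genes among the 6 with the highest fold changes were MRPL41 and MRPL38, both specific to mitochondria, the protein of MRPL38 lying in the central protuberance. MRPL41 had 31.3, 32.5 and 45.5 CPM in the mimic libraries and 28.5, 29.7 and 31.4 CPM in the scramble libraries. MRPL38 had 46.3, 55.0 and 58.2 CPM in the mimic libraries and 46.4, 48.4 and 37.1 CPM in the scramble libraries. Each overlapped between the groups through mimic library 1. Neither was called: the edgeR adjusted p without the block was 0.411 for MRPL41 (log2 fold change 0.33 ± 0.16, SE) and 0.371 for MRPL38 (0.31 ± 0.14), and with it 0.143 for MRPL41 and 0.0693 for MRPL38. The log2 fold change of MRPL41 was 0.11 without mimic library 3, and that of MRPL38 was 0.15 with the block but without pair 3.

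In the small subunit, MRPS34 was the gene called with the block. It encodes a protein specific to mitochondria, and lies on the − strand of chromosome 16 at 1771890 to 1773155. It had 88.4, 105 and 123 CPM in the mimic libraries, against 82.9, 84.9 and 85.6 CPM in the scramble libraries. All mimic libraries were higher, with a wide range among themselves and a narrow one among the scramble libraries. The log2 fold change was 0.36 ± 0.12 (SE), with an edgeR adjusted p of 0.225 without the block and 0.0181 with it. One of the 3 blocked fits without a pair lost the call (adjusted p 0.161), and without mimic library 3 the unblocked log2 fold change was 0.23.

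Among the genes taken by name, the most abundant of the small subunit stayed close to scramble. MRPS25 had 169, 151 and 194 CPM in the mimic libraries and 165, 169.5 and 209 CPM in the scramble libraries, with library 3 the highest in both groups. MRPS16 had 112, 126 and 123 CPM with the mimic and 122, 123 and 116 CPM with scramble. MRPS18B had 103, 118 and 117 CPM with the mimic and 114, 115 and 105 CPM with scramble. For all 3 the groups overlapped, and the log2 fold changes were -0.08 ± 0.13 for MRPS25, 0.02 ± 0.09 for MRPS16 and 0.04 ± 0.09 for MRPS18B (SE). MRPL16 was the large-subunit gene with the most counts, at 155, 172 and 127 CPM with the mimic and 166, 155 and 111 CPM with scramble. Library 3 was the lowest in each group, and the log2 fold change was 0.07 ± 0.17 (SE).

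The least abundant genes were of the large subunit. MRPL53 had 21.8, 16.4 and 14.0 CPM in the mimic libraries and 15.1, 15.9 and 14.4 CPM in the scramble libraries. MRPL46, of the central protuberance, had 16.3, 18.8 and 19.3 CPM with the mimic and 17.3, 18.2 and 15.3 CPM with scramble. MRPL23, near the tunnel exit, had 19.0, 18.4 and 23.3 CPM with the mimic and 15.2, 17.4 and 18.7 CPM with scramble. The groups overlapped for each, and in mimic library 1 these levels rested on 12 to 16 counts. The log2 fold changes were 0.09 ± 0.17 for MRPL53, 0.14 ± 0.14 for MRPL46 and 0.27 ± 0.16 for MRPL23 (SE). Per kilobase of transcript, the 78 genes had a median level of 50.9 CPM in the mimic group and 49.0 CPM in scramble. Over all libraries this scale ran from 8.12 CPM per kilobase to 168 for MRPL16, with a median of 50.2. On it, cytosolic ribosomal protein genes had a median level of 940.1 in the mimic group and 971 in scramble, nuclear respiratory subunits 100.4 with the mimic and 99.4 with scramble, and all tested genes 14.1 with the mimic and 14.2 with scramble. The scale could be computed for only 60 of the 75 nuclear respiratory genes tested, and for 12944 of all 14543 tested genes.

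The other 5 genes with a match of 7 or 8 letters, the 1 gene with an 8mer among them, had log2 fold changes closer to 0 than MRPL48 and MRPL49. MRPL35 had 99.3, 94.7 and 96.6 CPM in the mimic libraries and 102, 98.8 and 119.6 CPM in the scramble libraries. MRPL42 had 89.8, 96.5 and 75.0 CPM with the mimic and 94.1, 91.0 and 93.8 CPM with scramble. MRPL57 had 32.7, 31.0 and 30.9 CPM with the mimic and 32.8, 31.9 and 29.1 CPM with scramble. These 3 overlapped between the groups, and MRPL57 was level within its replicate spread. MRPS11 had 17.7, 23.0 and 25.6 CPM with the mimic and 24.4, 23.8 and 23.9 CPM with scramble, and MRPS18B is given above. The log2 fold changes were -0.15 ± 0.10 for MRPL35, -0.10 ± 0.11 for MRPL42, -0.00 ± 0.11 for MRPL57 and -0.04 ± 0.14 for MRPS11 (SE), none called in either fit. Over all tested genes with an annotated 3′ UTR, 18.3% of the 2171 with such a match were lower in the blocked fit, against 5.01% of the 10708 without one, and 2 of the 7 ribosomal genes with a match were. Without the block, 101 of the 2171 and 41 of the 10708 were called lower, and none of the 7 ribosomal genes was. UTR length was not equalised between genes with and without a match. The match is read from annotation alone: which 3′ UTR these cells use was not measured.

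Summed over the 78 genes, the libraries had 4453, 4842 and 5068 CPM with the mimic and 4700, 4622 and 4554 CPM with scramble. The averages were 4788 ± 311 CPM in the mimic group and 4625 ± 73.3 CPM in scramble (SD, n = 3 each), and the groups overlapped because mimic library 1 was the lowest of all 6. The pairs of same-numbered libraries differed in the same way: the median log2 ratio was -0.09 in pair 1, 0.06 in pair 2 and 0.19 in pair 3, with 28, 56 and 60 of 78 genes above 0. The ratio was above 0 in all 3 pairs for 19 genes and below 0 in all 3 for 8. In mimic library 1 the median gene of the set rested on 39 counts, a counting error of 16.0%, and 28 of the 78 genes had under 30 counts. In the other 5 libraries the median count was 1260 to 1494, a counting error of 2.59% to 2.82%. Without mimic library 3 the median log2 fold change of the set was 0.02.

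**Figure D3:**
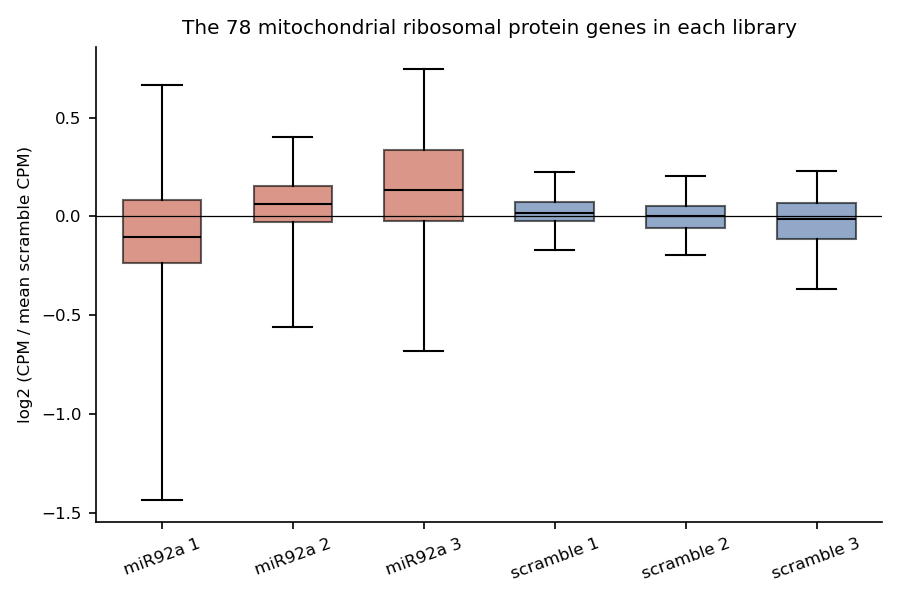
The log2 ratio of each of the 78 genes to its mean in the scramble libraries, by library, with mimic libraries to the left of scramble libraries; boxes span the quartiles, lines mark the median and whiskers reach the lowest and highest gene. The median is -0.10 in mimic library 1 and 0.13 in mimic library 3; scramble libraries enter their own mean, which narrows their boxes.

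Library 3 differed from libraries 1 and 2 of its group in ways that the groups partly shared. The log2 difference of library 3 from the mean of libraries 1 and 2 had the same sign in the mimic and the scramble group for 47 of the 78 genes (29 higher, 18 lower), or 60.3%, against 67.3% of all tested genes. Across the 78 genes these differences had a Pearson r of 0.56 and a Spearman rho of 0.56, given as a description since genes of the same libraries are not independent. Over all tested genes, with a small constant added to CPM before the log, r was 0.51 and rho 0.48. Examples picked after the values were seen are MRPL16, at -0.36 with the mimic and -0.52 with scramble, MRPL24, at -0.38 with the mimic and -0.50 with scramble, and MRPS9, at 0.25 with the mimic and 0.36 with scramble.

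**Figure D4:**
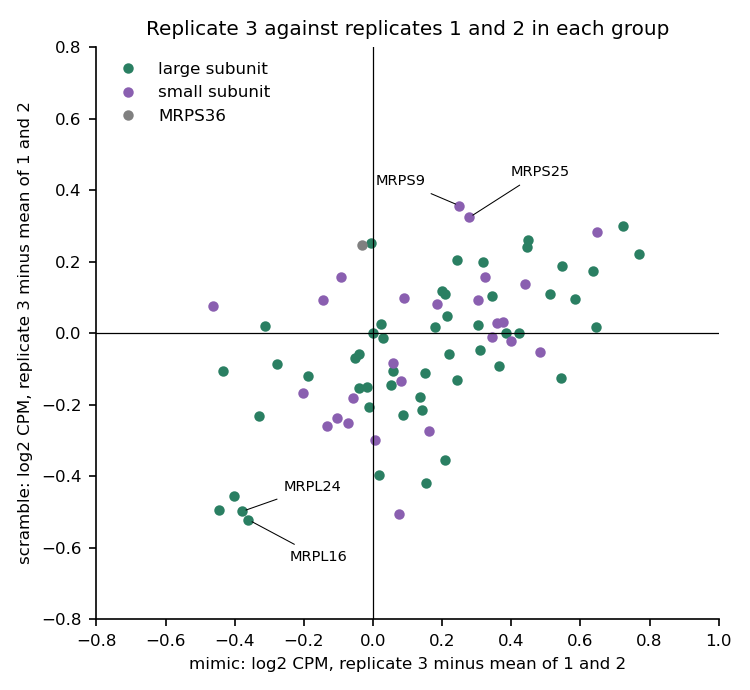
For each of the 78 genes, the log2 difference of library 3 from libraries 1 and 2 within the mimic group (horizontal axis) and within the scramble group (vertical axis). Points lean along the diagonal (Pearson r 0.56 over these genes, 0.51 over all tested genes). MRPL16 and MRPL24 are low in library 3 of both groups, and MRPS9 and MRPS25 are high in both.

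The genes share features of their surroundings and promoters. They lie on 21 chromosomes, and 29 of 78 (37.2%) start within 1000 bases of a coding gene on the other strand, against 17.2% of 12964 tested genes. Of their partners 27 were tested, and 14 of the 27 had the same sign of fold change as their ribosomal neighbour. MRPL46 and MRPS11 are such a pair, 34 bases apart, with a large-subunit gene on one side and a small-subunit gene on the other. In RefSeq promoters (GRCh38.p14, 250 bases before to 50 after the start), available for 69 of the 78 genes, 33 of 85 promoters (38.8%) held CCGGAAG, the letters bound by ETS factors such as GABPA, against 16.2% of the 14969 promoters of tested genes. The YY1 letters AANATGGCG were in 21.2% of the ribosomal promoters and 5.77% of all, and the NRF1 letters GCGCANGCG in 17.6% and 12.2%. Both strands were searched, no motif overlap was removed, and a match is a description of the sequence.

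Genes that work with the mitochondrial ribosome were read from the same fits. DAP3, a small-subunit protein outside the naming rule that binds GTP, had 312, 289 and 299 CPM in the mimic libraries and 266, 263 and 263 CPM in the scramble libraries. All mimic libraries were higher, by a log2 fold change of 0.18 ± 0.08 (SE), but neither fit called it (edgeR adjusted p 0.364 without the block, 0.157 with it), nor any of the 5 such genes tested, of which 3 had an unadjusted p under 0.05. Of 32 ribosome assembly genes, 0 were called by edgeR without the block, 8 had an unadjusted p under 0.05, and 5 were higher with the block: NGRN, TRUB2, METTL17, DHX30 and MRM2. Over all tested genes, 13.5% had an unadjusted edgeR p under 0.05 and 4.57% were higher with the block. NGRN, needed for the large subunit's RNA, had 80.3, 108 and 87.9 CPM with the mimic and 72.7, 69.2 and 55.0 CPM with scramble, with no overlap (blocked log2 fold change 0.56 ± 0.10, SE, edgeR adjusted p 0.00094). DHX30, an RNA helicase of the mitochondrial RNA granules, had 167, 146 and 190.0 CPM with the mimic and 135, 135 and 136 CPM with scramble (blocked log2 fold change 0.30 ± 0.09, SE, edgeR adjusted p 0.0322). The assembly list had a median log2 fold change of 0.14 without the block.

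Of 18 aminoacyl-tRNA synthetase genes that act in mitochondria, 1 was called without the block, against 1.41% of all tested genes. GARS, which charges glycine tRNA in both the cytosol and mitochondria, had 316, 305 and 299.6 CPM in the mimic libraries, against 194, 197 and 169.6 CPM in the scramble libraries. The groups were widely separated, with a log2 fold change of 0.71 ± 0.09 (SE, edgeR adjusted p 0.0079). Its adjusted p was 0.0511 without mimic library 1 and 0.0529 without mimic library 2. DESeq2 and limma-voom also called GARS and no other gene of these related lists. With the block EARS2 and LARS2, the mitochondrial glutamate and leucine enzymes, were also called, both lower. EARS2 had 28.6, 31.8 and 32.3 CPM with the mimic and 49.4, 50.8 and 39.1 CPM with scramble, while LARS2 was low and erratic, at 0.687 to 4.08 CPM with the mimic and 0.909 to 6.47 CPM with scramble. Among 27 translation factors and tRNA modifiers, QRSL1, of the enzyme that makes glutamine tRNA, was the gene called with the block (higher, log2 fold change 0.38 ± 0.12, SE). Among 26 genes of mitochondrial transcription, DNA replication and RNA processing, the block called MTERF2 lower (-0.34) and POLG, the mitochondrial DNA polymerase, higher (0.34). The block thus called 16.7%, 3.7% and 7.69% of these lists in turn, against 11.3% of all tested genes.

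No call was made by edgeR in either fit among 12 regulators of mitochondrial biogenesis, where 1 had an unadjusted p under 0.05, or 13 genes of mitochondrial DNA, where 0 did. Over all tested genes the share with such an unadjusted p was 13.5%. MYC, which activates ribosomal genes of many kinds, averaged 417 ± 35.6 CPM in the mimic group and 404 ± 79.7 CPM in scramble (SD, n = 3 each). MT-CO1 encodes a catalytic subunit of cytochrome oxidase made by the mitochondrial ribosome. It had 23831 to 25540 CPM with the mimic and 25578 to 28382 CPM with scramble. The groups did not overlap, but its small deficit (log2 fold change -0.15 ± 0.09, SE) was not called. The 13 genes had a median log2 fold change of -0.07. Cytosolic ribosomal protein genes had a median of -0.02, with 26 of 79 above 0, and nuclear respiratory subunits a median of 0.10, with 59 of 75 above 0. With the block 1 gene of each was called, RPL15 (1.27% of its list) and SDHA (1.33%), both higher, against 11.3% of all tested genes called. The mitochondrial ribosomal protein genes, at 0.08 with 54 of 78 above 0, lay nearer to the nuclear respiratory subunits than to the cytosolic ribosomal proteins. Differences between these lists were not tested.

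**Figure D5:**
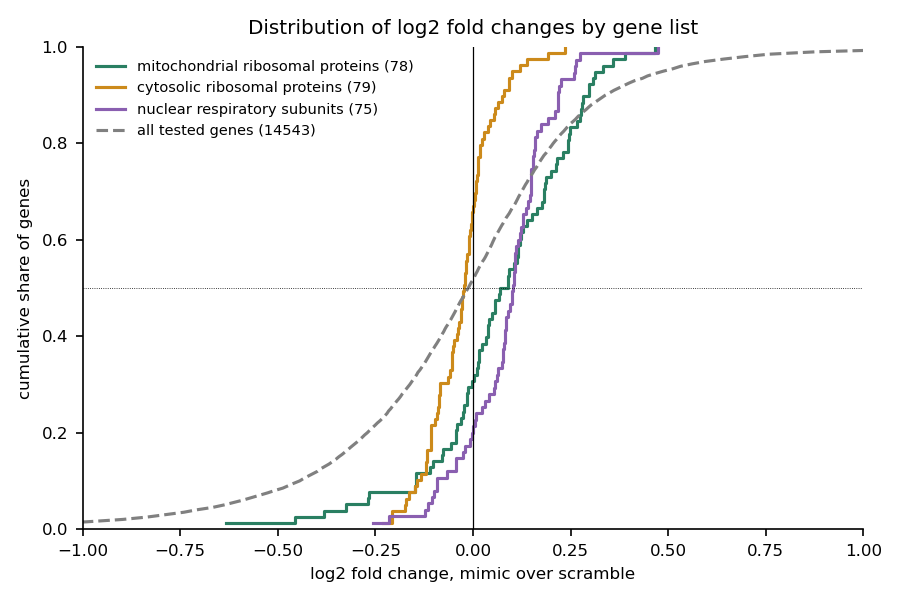
Cumulative share of genes by log2 fold change, mimic over scramble, for mitochondrial ribosomal proteins (78 genes), cytosolic ribosomal proteins (79), nuclear respiratory subunits (75) and all tested genes (14543). The 3 lists are narrower than all tested genes, and the mitochondrial ribosomal proteins have the longest lower tail of the 3, which ends in MRPL49 and MRPL48.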

How the data were processed

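Total RNA of 6 K562 cultures was sequenced in pairs of reads. The authors deposited 1 table of estimated counts per gene symbol, made with kallisto against GRCh38 per the submitters' processing notes; its values are whole numbers. The kallisto version, the transcript annotation and the strand setting are not given in the sources used here. No column was left unused. Samples were grouped by their titles.

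Counts were fitted with edgeR 4.0.16 (R 4.3.3; filterByExpr, TMM scaling, quasi-likelihood F-test on the group), with Benjamini-Hochberg adjustment over the 14543 genes tested and a threshold of 0.05. Standard errors are the log2 fold change divided by the root of F. CPM values are scaled by TMM. Alternatives were DESeq2 1.42.0, limma-voom (limma 3.58.1), other scalings and filters, a replicate block, and leaving out each library or pair. Deviations of same-numbered libraries from their group means correlated at 0.15, 0.16 and 0.42 for replicates 1, 2 and 3 over 14543 genes, so the numbers, which the labels give as biological replicates, were treated as pairing. Different numbers correlated at -0.33 to 0.10. Among the 4829 more abundant genes (averaging 1000 counts or more), however, mimic library 2 correlated with scramble library 1 (0.52) as much as with scramble library 2 (0.48), so only library 3 is set clearly apart. No 2 libraries of a group agreed within counting noise (chi-square per gene of 1.81 to 48.4). The labels do not say that cultures were separate thaws or passages, so p-values measure the spread between these libraries.

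Genes named are those called in either fit, the 6 highest and 6 lowest fold changes, the 5 highest and 3 lowest in CPM, and those with a seed match of 7 or 8 letters; from related lists, those called with the lowest p, or else the most abundant. The genes, lists and naming rule were chosen with earlier results of these data known. The sequence of 1 seed match is not reported here. Coordinates and UTRs are from GENCODE release 29, microRNA and promoters from RefSeq. Pseudogene entries named after these genes held 0.317% as many counts and were not added. Levels per kilobase divide CPM by the median length of a gene's coding transcripts. Counting errors cover counting alone, whereas SE and SD also take in the spread between libraries. Tables were handled with pandas 2.3.3 and figures drawn with matplotlib 3.10.9 (Python 3.11.15).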

Additional observations from a re-analysis of the deposited data

How the results depend on the processing

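The count of mitochondrial ribosomal protein genes called was 0 without a replicate block and stayed 0 under other scalings and filters, with DESeq2 and without any 1 library. It was 1 with limma-voom and 7 with the replicate block. Blocked fits that left out a pair called 5 without pair 1, 1 without pair 2 and 7 without pair 3. In the last of these MRPL10 and MRPL24 were called and MRPL37 and MRPL55 were not. The shares of all tested genes called in the fits without a pair are not given here, so these counts have no background beside them. Over all genes, 205 were called without the block, 379 by DESeq2, 1639 with the block and 70 to 201 without 1 library. Of the related lists, 1 gene was called in the fit without the block, 11 with the replicate block, 0 to 2 without 1 library (0 without mimic library 1 or 2, 2 without scramble library 3), and 7, 3 and 6 in blocked fits without pairs 1, 2 and 3. Groups did not overlap for 14 genes, and for 15 to 29 without 1 library (29 without mimic library 1, where fewer values must separate). The median of the large subunit exceeded that of the small by 0.05 on the log2 scale. This difference ran from -0.0098 to 0.0543 without 1 library, lowest without mimic library 3, and was -0.0299 with the block but without pair 3; its direction turned in these settings and in no other. Signs turned for 7 named genes near 0, none of them called in any fit. MRPL57 was at 0.00999 by total counts alone, 0.0177 with the block, 0.0299 and 0.0549 in blocked fits without pairs 1 and 2, and -0.0528 to 0.0354 without 1 library. Without 1 library, MRPS25 ran from -0.202 to 0.0375, MRPL16 from -0.0868 to 0.203, MRPS16 from -0.0185 to 0.0505, MRPS18B from -0.00085 to 0.0768, MRPL42 from -0.218 to 0.0206 and MRPS11 from -0.142 to 0.0161. In blocked fits MRPS11 was at 0.0322 without pair 1, and MRPS16 at -0.0061, MRPS18B at -0.0054 and MRPL42 at 0.0533 without pair 3. The cause was not tested. No other named gene turned its sign under these alternatives. Depth limits every value of mimic library 1.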
